A study of Mus musculus with 8 samples.

Results

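The comparison described here is the loss of Tgfbr2, the type II TGF-beta receptor, in smooth muscle cells of mice fed a high fat diet (HFD) for 1 month. It set 1 library of KO cells against 1 library of Apoe cells from the same deposited table, and its cells were found by the library tag at the end of each cell name. The table held 1302 KO cells and 1488 Apoe cells, 2790 of the 13056 cells of the series, in which both genotypes were also sampled on a normal diet (ND) and after 2 and 4 months of HFD. The KO mice carried the genotype labelled TGFBetaRiSMC-Apoe, a smooth muscle specific deletion of Tgfbr2 on the Apoe-deficient background, and the Apoe mice were Apoe-/-, so both groups lacked Apoe and differed by the receptor. Cells were digested from the ascending aorta, sorted as GFP-positive, and captured with the 10x Chromium droplet system, which tags each RNA molecule with a unique molecular identifier (UMI). The Cre driver, the reporter allele, the age of the mice and the number of mice behind each library are not given in the sources used here.

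TGF-beta binds the type II receptor, which phosphorylates the type I receptor Tgfbr1, and the activated pair phosphorylates Smad2 and Smad3, which enter the nucleus and switch on matrix, cytoskeletal and feedback genes. In the aortic wall, smooth muscle cells both contract and build the elastic lamellae, laying down tropoelastin on a microfibril scaffold with fibulins and lysyl oxidase. Impaired signalling through this receptor is a known cause of aneurysm of the ascending aorta in mice and humans, and the series asks what the loss does to gene expression in these cells.

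The summed depth was 11977077 UMIs in KO cells and 13955036 UMIs in Apoe cells, with medians of 8912.5 and 9208 UMIs per cell. A level is the number of a gene's UMIs in every 1000000 that its library holds (CPM). Levels carry 95% intervals from the Poisson distribution (exact) and shares of cells carry Clopper-Pearson ones, which cover counting error only. With 1 library per genotype there was no replicate error and no test could be made, so genes were sorted by a fixed size, a log2 ratio of CPM (KO over Apoe) of at least 1 in either direction. The lowest share of cells with a UMI of a listed gene was 5.07% in KO cells and 5.04% in Apoe cells. From this, a gene seen in under 5% of a library's cells was taken to be listed at 0 there. No source used here states that limit, and no fold was given against such a 0. Of 10040 genes in the table, 9348 were listed in both libraries, 358 in KO cells alone and 334 in Apoe cells alone. Among the 9348, 165 reached the fixed size, or 1.77%: 81 were higher in KO cells, or 0.866%, and 84 were lower, or 0.899%. The median log2 ratio over all 9348 genes was 0.02, and 90.03% of them lay within 0.5 of 0.

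**Figure D1:**
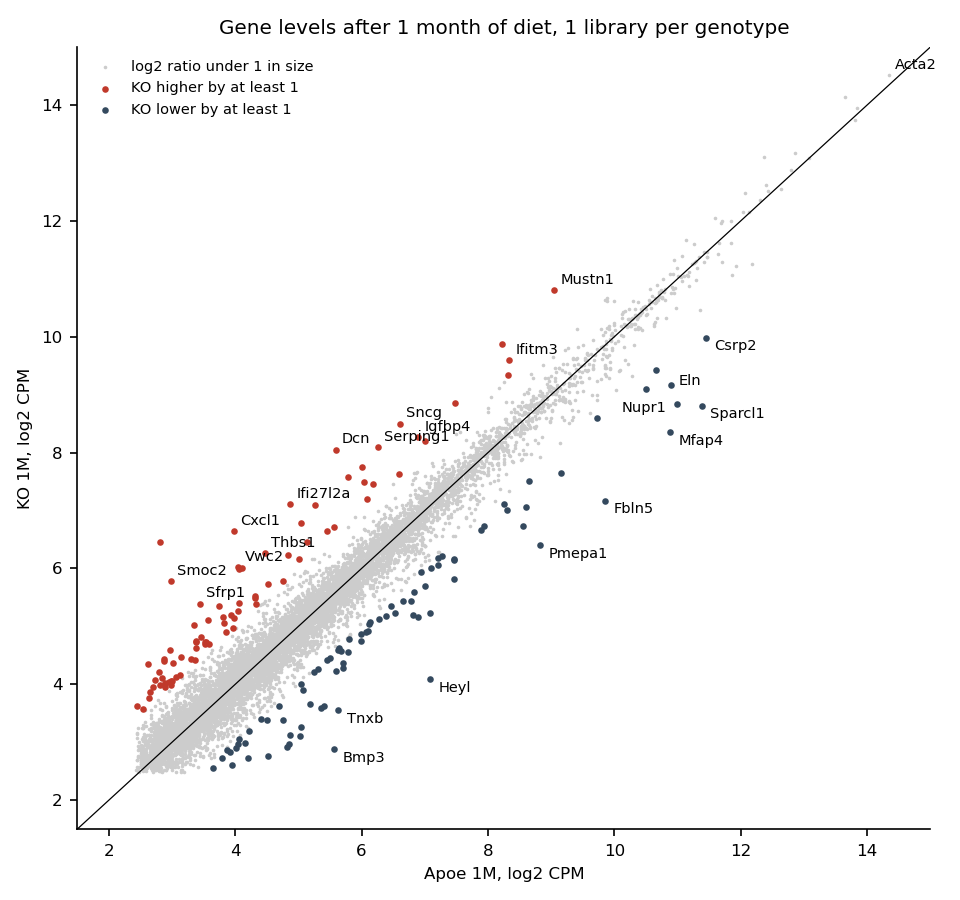
Levels of the 9348 genes listed in both libraries, KO 1M on the vertical and Apoe 1M on the horizontal axis, both as log2 CPM, 1 point per gene; the line marks equal levels. The 81 genes higher and 84 genes lower in KO cells by at least 1 stand off the diagonal, with Eln, Fbln5, Mfap4, Sparcl1 and Csrp2 the highly expressed genes below it and Mustn1 and Ifitm3 above it.

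The deleted receptor could be checked on 1 side only. Tgfbr2, on the minus strand at chr9:116084293-116175360 (GRCm38), was not listed in the table that pairs the genotypes, nor in the table of the KO time course. In the table of the Apoe time course, Apoe 1M cells held Tgfbr2 at 42.1 CPM (38.8 to 45.7), with a UMI in 32.6% of cells. Apoe itself was listed in none of the tables. The tables that pair the genotypes are labelled as without Apoe and Tgfbr2, so their absence there is no measure of their level. The time course tables carry a similar label, yet that of the Apoe cells held Tgfbr2. The genotype of the KO library therefore rests on its labels.

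Both libraries were made up of cells with smooth muscle RNA, and small sets of cells also held RNA of other cell types. More markers of fibroblasts, macrophages and Schwann cells were listed in the KO library than in the Apoe library. At least 3 of 6 smooth muscle markers (Acta2, Myh11, Tagln, Cnn1, Smtn, Lmod1) had a UMI in 1299 of 1302 KO cells and in 1488 of 1488 Apoe cells. Of 12 fibroblast markers, 9 were listed in KO cells at a summed 563 CPM and 4 in Apoe cells at a summed 131 CPM. Cells with UMIs of 3 or more of them numbered 142 in KO cells, or 10.9% (9.26 to 12.7), and 22 in Apoe cells, or 1.48% (0.929 to 2.23). An Apoe cell could reach 3 only within its 4 listed markers and could not reach 5, so these counts are no comparison of the genotypes. Within the 142, a set of 44 KO cells, 3.38% of the library with 4.64% of its UMIs, carried 5 or more fibroblast markers, a limit chosen after the data were seen, and 98 carried 3 or 4. Of 14 macrophage markers, 7 were listed in KO cells at a summed 670 CPM (Cd68, Lyz2, C1qa, C1qb, C1qc, Cd74 and Lgals3), while Csf1r, Adgre1 and Mrc1 were absent from the table. In Apoe cells Lgals3 was the 1 macrophage marker listed, at 64.3 CPM. At least 3 macrophage markers had a UMI in 71 KO cells, or 5.45% (4.28 to 6.83), and in 0 of 1488 Apoe cells. If markers in under 5% of Apoe cells are listed at 0, a class of that size could not have been seen there. The 0 does not show absence. Of the other lists, 3 Schwann markers were listed in KO cells, with a UMI of all 3 in 10 cells, and 2 in Apoe cells, where no cell could therefore hold 3. For the rest, 2 endothelial markers were listed in each library, 6 pericyte markers, which smooth muscle cells share, summed to 467 CPM in KO cells and 620 CPM in Apoe cells, and no lymphocyte or erythrocyte marker was listed in either. The libraries shared 5 cell barcodes, and doublets were not called. Each result below is given over all cells and, where these cells bear on it, over the remaining cells. Those are the 1089 KO cells and 1466 Apoe cells left without cells of 3 or more markers of fibroblasts or any of these other types. The setting aside was uneven, since 5 fibroblast and 6 macrophage markers were listed in KO cells alone. Apoe cells of the same kind could not be set aside by those markers, and every ratio over the remaining cells carries that limit.

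Genes of the elastic fibre were among the lowest in KO cells. Fbln5, an adaptor that guides elastin onto microfibrils, stood at 144 CPM (137 to 151) in KO cells and 928 CPM (912 to 944) in Apoe cells, a log2 ratio of -2.69. Mfap4, a microfibril-associated glycoprotein, stood at 327 CPM (316 to 337) in KO cells and 1892 CPM (1869 to 1915) in Apoe cells, a log2 ratio of -2.53. Eln, which encodes tropoelastin, stood at 574 CPM (560 to 587) in KO cells and 1899 CPM (1876 to 1922) in Apoe cells, a log2 ratio of -1.73. None of these Poisson intervals overlapped between the libraries. At this depth counting intervals are narrow, and that of the log2 ratio excluded 0 for 4024 of the 9348 genes. Ltbp3, a latent TGF-beta binding protein of the microfibril, had 37.7 CPM in KO cells and 92.0 CPM in Apoe cells. Lox, which cross-links elastin and collagen, had 101 CPM in KO cells and 236 CPM in Apoe cells. Of the 17 members of the elastic fibre list given in both libraries, these 5 were lower by at least 1, against 0.899% of all genes, and 1 was higher; 14 of the 17 lay below 0 and the median was -0.41, against 0.02 over all genes. Other microfibril proteins varied. Mfap5 had 243 CPM in KO cells and 453 CPM in Apoe cells, a log2 ratio of -0.90 that reached -1.47 in the cells left after the marker cells were set aside. Fbn1, the main fibrillin of the microfibril, had 79.6 CPM in KO cells and 101 CPM in Apoe cells, and Emilin1 95.5 CPM in KO cells and 143 CPM in Apoe cells.

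These library sums hid an uneven spread over the KO cells. Eln had a UMI in 62.5% (59.8 to 65.2) of KO cells and 99.5% (99.03 to 99.81) of Apoe cells, and 45.5% and 98.5% once every cell was thinned to 5000 UMIs, with 140 shallower KO cells and 99 shallower Apoe cells left out. The median cell held 1.04 Eln UMIs per 10000 in the KO library and 14.8 in the Apoe library. The 5% of KO cells with the most Eln UMIs held 80.6% of that library's Eln UMIs, against 19.95% for the same share of Apoe cells. Fbln5 had a UMI in 32.6% of KO cells (22.3% thinned) and 98.9% of Apoe cells (96.6% thinned). Its median was 0 per 10000 UMIs in KO cells and 8.38 in Apoe cells. Few KO cells exceeded the Apoe median, 2.92% for Eln and 2.995% for Fbln5.

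**Figure D2:**
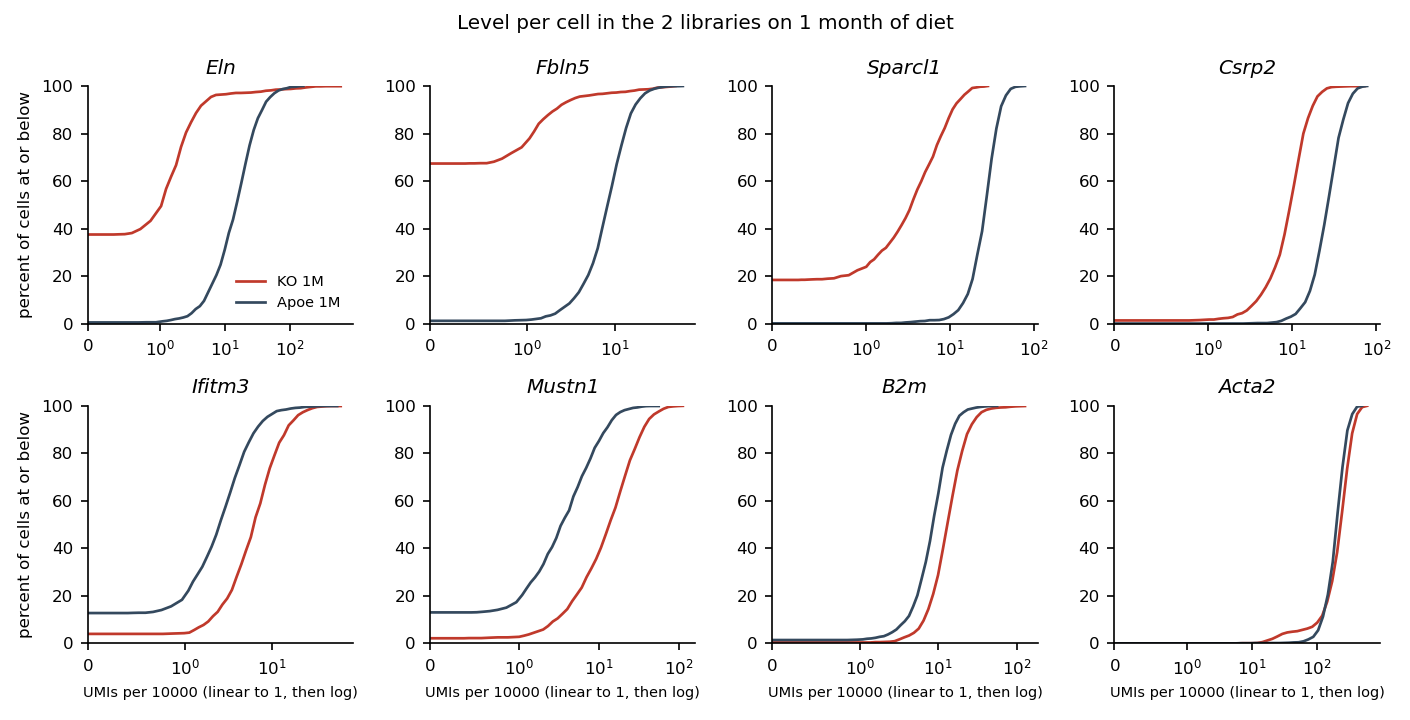
Percent of cells at or below each level, in UMIs per 10000 UMIs of the cell (linear to 1, then logarithmic), for KO 1M cells (red) and Apoe 1M cells (dark). For Eln and Fbln5 the KO curve starts at 37.5% and 67.4% of cells without a UMI and has a long flat upper tail, while Sparcl1, Csrp2, Ifitm3, Mustn1, B2m and Acta2 run as whole curves beside the Apoe curve.

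Most of the Eln, Fbln5 and Mfap4 UMIs of the KO library lay in the cells with 5 or more fibroblast markers. Eln is not among the markers, yet the 44 cells stood at 8364 CPM (8125 to 8608) and held 67.7% of the Eln UMIs of the KO library. The other KO cells stood far below them whatever their number of markers: Eln was at 199.7 CPM (186 to 214) with 0 markers and 247 CPM (218 to 279) with 3 or 4, a small difference whose counting intervals did not overlap. Fbln5 had the same step, at 1947 CPM in the 44 cells and 53.0 and 63.4 CPM with 0 markers and with 3 or 4, and so had Mfap4, at 4624 CPM in the 44 cells and 111 and 103 CPM. The share of the KO library's UMIs held by the 44 cells was 62.7% for Fbln5 and 65.7% for Mfap4. With marker cells set aside, most of them KO cells, the log2 ratios of Eln, Fbln5 and Mfap4 lay further below 0. Eln was at 184 CPM in the remaining KO cells and 1903 CPM in the remaining Apoe cells, a log2 ratio of -3.37. Fbln5 was at 55.2 CPM in the remaining KO cells and 916 CPM in the remaining Apoe cells, a log2 ratio of -4.05, and Mfap4 was at 117 CPM and 1896 CPM, a log2 ratio of -4.02. Over these cells 7 of the 17 elastic fibre members were lower by at least 1, none was higher, and the median was -0.58. Of all 9348 genes, 117 were lower by at least 1 in these cells, against 84 over all cells. The added members of the list were Mfap5 and Ltbp2, a latent TGF-beta binding protein, with log2 ratios of -1.47 and -1.38. The 1 member higher over all cells, Fbln2, had 24.5 CPM in KO cells and 10.4 CPM in Apoe cells, but 8.03 CPM and 10.3 CPM in the remaining cells.

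The 44 cells also differed from the rest of the KO library in smooth muscle RNA. Acta2, smooth muscle alpha-actin, was at 3293 CPM (3144 to 3447) in them and 24915 CPM in the remaining KO cells. Myh11 and Tagln, which encode smooth muscle myosin heavy chain and transgelin, stood there at 389 and 166 CPM, against 2494 and 1090 CPM in the remaining KO cells. As a share of the remaining level, Acta2, Myh11, Tagln, Cnn1 and Myl9 lay between 13.2% and 16.5%. Csrp2, by contrast, was at 1033 CPM in the 44 cells and 1017 CPM in the remaining KO cells. Read the other way, the remaining cells held Eln, Fbln5 and Mfap4 at 2.20%, 2.83% and 2.53% of the level of the 44 cells, and Igf1 and Serpinf1, a pair of genes listed in KO cells alone and outside the marker list, at 0.336% and 1.05%. Whether free RNA or doublets contribute to these levels was not tested. In bulk sums of this kind, fewer cells of a type and less RNA per cell cannot be told apart, and the values per cell stand beside them.

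**Figure D3:**
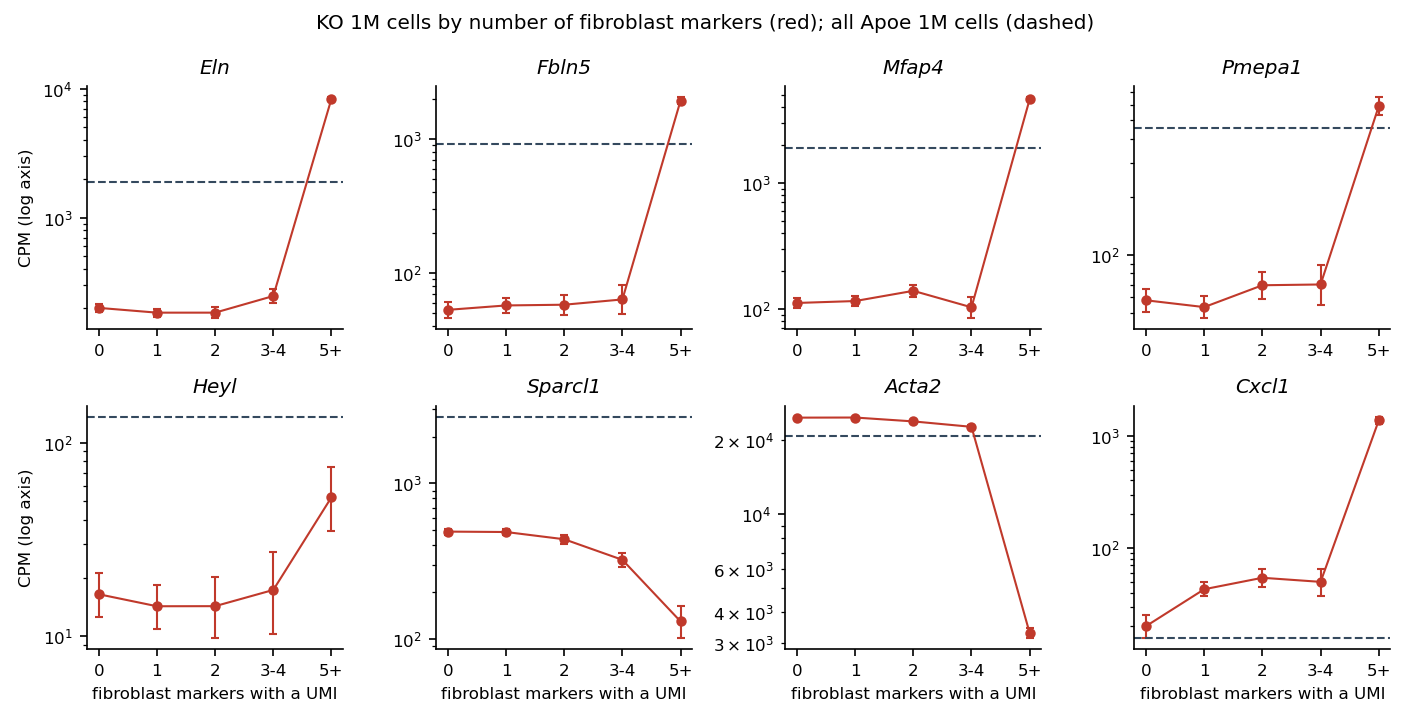
CPM (log axis) in KO 1M cells grouped by how many of 9 fibroblast markers have a UMI (447, 483, 230, 98 and 44 cells), with Poisson 95% intervals; the dashed line is the level over all Apoe 1M cells. Eln, Fbln5, Mfap4 and Pmepa1 stay below the Apoe line with 0 to 4 markers and exceed it with 5 or more, Heyl and Sparcl1 stay below it throughout, Acta2 is above it until it drops to 3293 CPM in the last group, and Cxcl1 climbs to 1375 CPM there.

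Of 17 genes that TGF-beta is known to induce, 5 were lower in KO cells by at least 1. Pmepa1, a membrane protein that restrains TGF-beta signalling and is itself induced by it, had 84.3 CPM (79.2 to 89.7) in KO cells and 454 CPM (443 to 465) in Apoe cells, a log2 ratio of -2.43. Nox4, an NADPH oxidase, had 56.3 CPM in KO cells and 176 CPM in Apoe cells. Ccn2, connective tissue growth factor, had 546 CPM in KO cells and 1444 CPM in Apoe cells. Ldlrad4, a further inhibitor of the pathway, had 12.3 CPM in KO cells and 42.1 CPM in Apoe cells. The 5 lower members stand against 0.899% of all genes; 1 of the 17 was higher, 14 lay below 0 and 3 above, and the median was -0.41. Skil, a repressor of Smad proteins, lay just under the size at -0.997, with 162 CPM in KO cells and 322 CPM in Apoe cells. Smad7, the inhibitory Smad, had 236 CPM in KO cells and 304 CPM in Apoe cells, a log2 ratio of -0.36. The 1 higher member was Thbs1, a secreted activator of latent TGF-beta, with 77.0 CPM in KO cells and 22.2 CPM in Apoe cells, and with 55.0 and 22.4 CPM in the remaining cells.

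In the 44 cells the response genes did not all stand together. Pmepa1 was at 592 CPM (530 to 660) there and 56.6 CPM in the remaining KO cells, and Ccn2 was at 2048 CPM and 483 CPM. Nox4 was at 70.2 CPM (49.9 to 95.9) in the 44 cells and 55.1 CPM in the remaining KO cells, both under the 176 CPM of Apoe cells. Without the marker cells, 7 of the 17 response genes were lower by at least 1, against 117 of all 9348 genes. Pmepa1 had a log2 ratio of -3.00 there. Tgfbr2 was not in this table, so its level in the 44 cells could not be read.

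The receptors, ligands and Smad transducers of the pathway stood within the fixed size, with 0 of 10 past it and a median of 0.10. Of the 10, the transducers Smad2, Smad3 and Smad4 had log2 ratios of -0.01, 0.72 and -0.18. Tgfbr1, the type I receptor, had 65.9 CPM in KO cells and 106 CPM in Apoe cells, and the co-receptor Tgfbr3 had 32.6 CPM in KO cells and 54.1 CPM in Apoe cells. Of the ligands, Tgfb3 had 190 CPM in KO cells and 115 CPM in Apoe cells, while Tgfb2 had 159 CPM and 184 CPM and Tgfb1 76.0 CPM and 65.4 CPM. The ratio was below 0 for both of these receptors and for Tgfb2, and above 0 for Tgfb3 and Tgfb1.

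Other secreted and adhesive proteins followed the elastic fibre in part. Sparcl1, a matricellular relative of SPARC, had 448 CPM (436 to 460) in KO cells and 2677 CPM (2650 to 2705) in Apoe cells, a log2 ratio of -2.58. Unlike Eln it was spread over the cells: its median was 3.48 per 10000 UMIs in KO cells and 26.5 in Apoe cells, 0.154% of KO cells exceeded the Apoe median, and the 44 cells held 130 CPM. Of the 16 matricellular genes in both libraries 4 were lower by at least 1, namely Sparcl1, the tenascin Tnxb, the thrombospondin Thbs2 and the proteoglycan Vcan. In the same list 2 were higher, and the median was -0.70. Over all genes 0.899% were lower and 0.866% higher by at least 1. Both higher members, Smoc2 and Thbs1, had KO UMIs in the 44 cells, 82.3% of them for Smoc2 and 31.0% for Thbs1; in the remaining cells Smoc2 had 9.39 CPM in KO cells and 7.93 CPM in Apoe cells. Interstitial collagens stayed within the size over all cells, with 0 of 13 past it and a median of -0.52. Col1a2 had 543 CPM in KO cells and 1044 CPM in Apoe cells, and 392.5 and 1043 CPM in the remaining cells, which took it past the size at -1.41. Col1a1, Col3a1, Col5a2 and Col15a1 passed it there too, with log2 ratios of -1.13, -1.01, -1.22 and -1.12. In the remaining cells 5 of the 13 were thus lower by at least 1, against 117 of all 9348 genes, and the median was -0.79. Among 23 integrin and focal adhesion genes, Itgb3, Itgb5 and the cytoskeletal adaptor Pdlim1 were lower by at least 1, against 0.899% of all genes. None was higher. Itgb5 had 182 CPM in KO cells and 401 CPM in Apoe cells. Sod3, the extracellular superoxide dismutase bound to matrix, had 684 CPM in KO cells and 1607 CPM in Apoe cells, a log2 ratio of -1.23.

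The contractile genes did not follow. Acta2 had 23420.2 CPM in KO cells and 20762 CPM in Apoe cells, a log2 ratio of 0.17, and Myh11 and Tagln had log2 ratios of 0.20 and 0.08. Of 24 contractile genes, 0 were higher and 1 was lower by at least 1, 17 lay above 0, and the median was 0.13. The 1 lower member was Mylk4, a kinase of the myosin light chain kinase family, with 36.6 CPM in KO cells and 112 CPM in Apoe cells. Csrp2, a LIM protein of the smooth muscle cytoskeleton outside the fixed lists and singled out after its values were seen, had 1008 CPM (990 to 1026) in KO cells and 2796 CPM (2769 to 2824) in Apoe cells, a log2 ratio of -1.47. Its median was 9.53 per 10000 UMIs in KO cells and 26.4 in Apoe cells, and 0.845% of KO cells exceeded the Apoe median.

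The Notch, BMP and unfolded protein response lists each held 1 member past the size, lower in KO cells. Heyl, a transcriptional repressor that Notch switches on, had the lowest ratio of the 9348 genes, -3.00, with 16.9 CPM (14.7 to 19.4) in KO cells and 136 CPM (130 to 142) in Apoe cells. It had a UMI in 11.98% of KO cells (7.56% thinned) and 67.5% of Apoe cells (48.0% thinned). Other Notch targets did not share this: Hes1 had 1418 CPM in KO cells and 1198 CPM in Apoe cells, Hey1 64.4 and 51.8 CPM, and Hey2 43.7 and 54.6 CPM. The receptor Notch3 had 14.9 CPM in KO cells and 14.5 CPM in Apoe cells. Bmp3, an atypical member of the bone morphogenetic protein family, had 7.35 CPM in KO cells and 47.4 CPM in Apoe cells, a log2 ratio of -2.69, the 1 of 14 BMP and Id genes past the size. Nupr1, a stress-induced chromatin protein, had 457 CPM in KO cells and 2043 CPM in Apoe cells. In the 44 cells with 5 or more fibroblast markers Nupr1 was at 2744 CPM, against 329 CPM in the remaining KO cells. All 16 genes of its list, the unfolded protein response, lay below 0, with a median of -0.25 and no other member past the size. The immediate early genes, which tissue dissociation is also known to induce, were lower as a set by a small amount, 20 of 21 below 0 with a median of -0.44. Fos had 2387 CPM in KO cells and 3878 CPM in Apoe cells, and Nr4a1, the 1 member past the size, 387 CPM and 845 CPM. The part of dissociation in these levels was not tested.

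**Figure D4:**
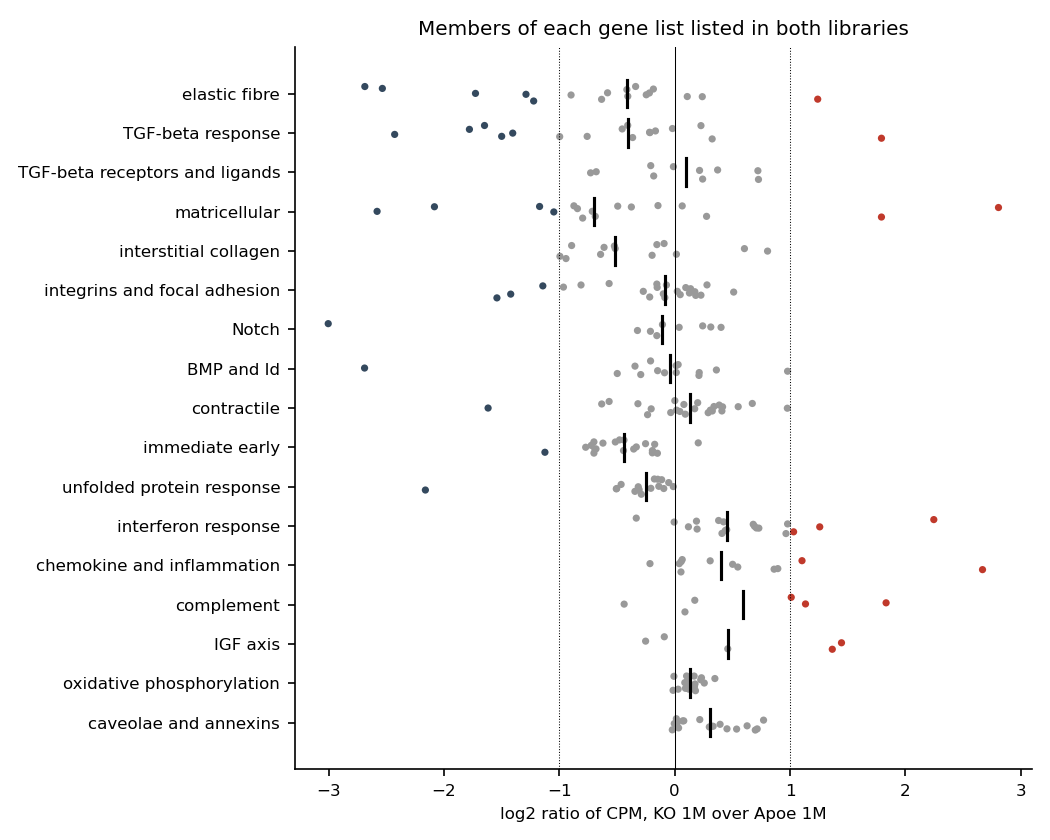
Log2 ratio of CPM, KO 1M over Apoe 1M, for every member of 17 gene lists listed in both libraries (1 point per gene, vertical jitter for display only); black ticks are list medians and dotted lines mark -1 and 1. Lower members gather in the elastic fibre, TGF-beta response and matricellular lists, higher ones in the interferon, chemokine and complement lists, and the contractile list sits near 0 with Mylk4 alone past the line.

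On the higher side, interferon-inducible genes were higher, most of them by less than the fixed size. Ifitm3, a membrane protein that blocks virus entry, had 773 CPM (758 to 789) in KO cells and 323 CPM (314 to 333) in Apoe cells, a log2 ratio of 1.26. B2m, the light chain of MHC class I, had 1570 CPM in KO cells and 946 CPM in Apoe cells, a log2 ratio of 0.73. Both were spread over the cells, with 85.6% of KO cells above the Apoe median for Ifitm3 and 80.1% for B2m. Of the 19 interferon-inducible genes in both libraries, 3 were higher by at least 1 (0.866% of all genes), 17 lay above 0, and the median was 0.45, against 0.02 over all genes. A further 8 were listed in KO cells alone, Ly6e at 42.6 CPM and H2-T23 at 20.7 CPM among them, and 0 of the list in Apoe cells alone; over all genes 358 of 10040 were listed in KO cells alone. Macrophage markers were higher beside this list, so the values without the marker cells stand here. The median of the 19 was 0.45 again and 3 were again past the size, where 69 of all 9348 genes were higher by at least 1. Ifitm3 had 713 CPM in the remaining KO cells and 322 CPM in the remaining Apoe cells. Of the genes listed in KO cells alone, Ly6e fell to 9.49 CPM and H2-T23 to 14.7 CPM in the remaining KO cells. Ifi27l2a, the member with the highest ratio at 2.25, had 138 CPM in KO cells and 29.2 CPM in Apoe cells, and 65.5 and 29.4 CPM in the remaining cells. The 62 KO cells with macrophage but not fibroblast markers held 37.0% of its KO UMIs.

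Promoters are shown for 3 of these genes because interferon-inducible genes are known to carry the interferon-stimulated response element. The 250 bases before the RefSeq start (GRCm38.p6) were searched on both strands for its core, GAAA, any 2 bases, and GAAA again. It was found in 978 of 32851 RefSeq promoters of the same length, or 2.98%. Among promoters of genes in the 1 month table it was found in 227 of 9736, or 2.33%. The list had it in 11 of 27 promoters, belonging to 11 of the 22 members that have a promoter there. Ifi27l2a, Ifitm3 and Iigp1, the members past the size, were not among these 11. The windows of Isg15 (chr4:156200819-156201068, minus strand), Bst2 (chr8:71537473-71537722, minus strand) and B2m (chr2:122147437-122147686, plus strand) are given 5′ to 3′ with the matched bases in capitals.
Isg15: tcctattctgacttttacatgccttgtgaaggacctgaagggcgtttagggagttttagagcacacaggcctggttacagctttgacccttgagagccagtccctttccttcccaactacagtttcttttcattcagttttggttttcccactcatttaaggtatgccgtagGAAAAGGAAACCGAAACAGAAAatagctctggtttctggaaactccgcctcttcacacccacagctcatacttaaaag
Bst2: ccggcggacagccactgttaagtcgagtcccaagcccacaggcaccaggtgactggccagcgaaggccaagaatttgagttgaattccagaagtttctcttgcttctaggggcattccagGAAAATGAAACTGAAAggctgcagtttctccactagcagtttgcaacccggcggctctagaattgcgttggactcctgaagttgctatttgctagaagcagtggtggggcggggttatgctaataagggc
B2m: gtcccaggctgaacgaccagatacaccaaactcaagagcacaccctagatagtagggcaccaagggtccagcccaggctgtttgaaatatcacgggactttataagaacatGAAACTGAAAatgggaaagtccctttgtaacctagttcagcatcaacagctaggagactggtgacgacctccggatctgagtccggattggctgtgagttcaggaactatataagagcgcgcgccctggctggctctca
In Isg15 there were 3 overlapping matches, the first beginning 78 bases before the start; in Bst2 there were 2 that overlapped, the first beginning 130 bases before the start; and in B2m there was 1, beginning 139 bases before it. Isg15, a ubiquitin-like modifier, had 41.8 CPM in KO cells and 21.4 CPM in Apoe cells, and Bst2, the virus tether, 118 CPM in KO cells and 59.8 CPM in Apoe cells. Ifitm2 also carried the core and had 582 CPM in KO cells and 583 CPM in Apoe cells. A match is a description of the letters and not a shown site of binding.

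Of 12 chemokine and inflammation genes in both libraries 2 were higher in KO cells by at least 1, Cxcl1 and Vcam1, against 0.866% of all genes. The RNA of Cxcl1, Cxcl2 and Ccl7 sat in few cells, with a UMI in 8.06% to 14.1% of KO cells. The 5% of KO cells with the most UMIs of each gene held 90.2%, 93.2% and 93.6% of them. For Cxcl1 the 99th percentile of KO cells was 9.57 per 10000 UMIs, and the highest cell had 338. Cxcl1, a neutrophil attractant, had 100 CPM (94.7 to 106) in KO cells and 15.8 CPM (13.8 to 18.0) in Apoe cells, a log2 ratio of 2.67. Cxcl2, its neighbour 10755 bases away on chr5, had 133 CPM in KO cells and was listed at 0 in Apoe cells. Cxcl2 and Ccl7 were above 0 in the KO 1M library alone among the 8 libraries, so their difference rests on that library. The Cxcl1 UMIs of the KO library lay to 63.6% in the 44 cells with 5 or more fibroblast markers, at 1375 CPM, while the Cxcl2 UMIs lay to 75.5% in the 62 cells with macrophage but not fibroblast markers, at 1771 CPM. Ccl7, a monocyte attractant listed in KO cells alone, was split between them, 38.8% and 38.7%. In the remaining cells Cxcl1 had 20.03 CPM in KO cells and 15.2 CPM in Apoe cells, Cxcl2 had 13.7 CPM in KO cells, and 0 of the 12 were higher by at least 1. The list's median was 0.41 over all cells and 0.03 over the remaining cells. Vcam1, a leukocyte adhesion molecule and the other member past the size, had 146 CPM in KO cells and 68.0 CPM in Apoe cells, and 111 and 69.0 CPM in the remaining cells.

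The windows before Cxcl1 (chr5:90890995-90891244, plus strand) and Cxcl2 (chr5:90903649-90903898, plus strand) are shown because both hold the same NF-kB motif, GGGAA followed directly by TTTCC, searched on both strands and capitalised here. It occurs in 28 of 32851 promoters of this length, or 0.0852%, and in 3 of the 11 promoters of the chemokine list. These belong to 3 of the 10 members with a promoter, Cxcl1, Cxcl2 and Nfkbia.
Cxcl1: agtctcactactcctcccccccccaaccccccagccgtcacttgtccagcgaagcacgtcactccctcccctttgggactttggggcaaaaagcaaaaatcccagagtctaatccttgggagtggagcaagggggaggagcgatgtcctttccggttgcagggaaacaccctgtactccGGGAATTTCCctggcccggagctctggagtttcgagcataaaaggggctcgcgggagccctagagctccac
Cxcl2: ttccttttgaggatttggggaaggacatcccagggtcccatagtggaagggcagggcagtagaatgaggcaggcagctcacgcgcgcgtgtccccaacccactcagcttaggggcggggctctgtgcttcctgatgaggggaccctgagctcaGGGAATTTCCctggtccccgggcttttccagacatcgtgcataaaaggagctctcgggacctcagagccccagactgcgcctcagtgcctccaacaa
The motif begins 71 bases before the start in Cxcl1 and 97 bases before it in Cxcl2. Nfkbia, the NF-kB inhibitor, had 697 CPM in KO cells and 809 CPM in Apoe cells, a log2 ratio of -0.21.

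Complement genes were higher, the leading member with and without the marker cells. Serping1, the C1 inhibitor, had 272 CPM (263 to 282) in KO cells and 76.4 CPM (71.9 to 81.1) in Apoe cells, a log2 ratio of 1.83, and 225 and 74.6 CPM in the remaining cells. C1s1 and C1ra, the proteases that Serping1 blocks, had 21.7 and 31.5 CPM in KO cells and 9.89 and 15.6 CPM in Apoe cells. These were 3 of 6 complement genes in both libraries, against 0.866% of all genes higher by at least 1. In the remaining cells Serping1 alone kept the size.

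Several genes at or near the top of the ranking came with fibroblast marker cells. Dcn, which encodes the proteoglycan decorin and is itself a fibroblast marker, had 265 CPM in KO cells and 48.2 CPM in Apoe cells, and the 44 cells held 85.6% of its KO UMIs. Tnfrsf11b, osteoprotegerin, had 64.0 CPM in KO cells and 17.2 CPM in Apoe cells, with 72.1% of KO UMIs in the 44 cells. In the remaining cells Tnfrsf11b had 19.0 CPM in KO cells and 17.0 CPM in Apoe cells. With predicted genes and pseudogenes left out, 10 of the 15 genes with the highest ratio were still past the size in the remaining cells. Smoc2, Cxcl1, Dcn, Pcolce and Tnfrsf11b were not. Of the 15 lowest, all 15 were still past it. Lum, Igf1, Serpinf1 and Pi16, all listed in KO cells alone at 64.5 to 84.5 CPM, had 80.4% to 89.3% of their UMIs in the 44 cells, which for Lum and Pi16 follows in part from their place among the markers. Igf1 and Pi16 were above 0 in the KO 1M library alone among the 8 libraries, as were the macrophage markers C1qa and C1qb.

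Among the highest ratios, Mustn1, Sncg, Cidea and Bok kept the size in the remaining cells. Mustn1, a small nuclear protein of musculoskeletal tissue, had 1779 CPM (1756 to 1804) in KO cells and 528 CPM (516 to 540) in Apoe cells, a log2 ratio of 1.75. Its median was 13.5 per 10000 UMIs in KO cells and 3.43 in Apoe cells, and 87.9% of KO cells exceeded the Apoe median. Itih4, singled out after its values were seen, lies 4865 bases beyond Mustn1 on the same strand of chr14. It had 939 CPM in KO cells and 299 CPM in Apoe cells, with 83.9% of KO cells above the Apoe median. Sncg, gamma-synuclein, had 362 CPM in KO cells and 97.3 CPM in Apoe cells. Cidea, a protein of lipid droplets, had 32.6 CPM in KO cells and 10.2 CPM in Apoe cells, and Bok, of the Bcl-2 family, 20.5 CPM in KO cells and 6.16 CPM in Apoe cells. In the 44 cells Mustn1, Itih4 and Sncg were at 509, 202 and 112 CPM, under their levels in the remaining KO cells of 1822, 1019 and 371 CPM.

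A set of 4 genes for secreted proteins, put together after their values were seen, also kept the size. Vwc2, a BMP antagonist, had 65.0 CPM in KO cells and 16.6 CPM in Apoe cells, and Sfrp1, a Wnt antagonist, 42.0 CPM in KO cells and 10.9 CPM in Apoe cells. Igfbp4 and Igfbp2, which bind insulin-like growth factors, had 307 and 179 CPM in KO cells and 119 and 65.7 CPM in Apoe cells. They were 2 of the 5 IGF genes in both libraries, against 0.866% of all genes higher by at least 1. In the remaining cells the log2 ratios of Vwc2, Sfrp1, Igfbp4 and Igfbp2 were 2.10, 2.07, 1.21 and 1.37.

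The 15 lowest ratios, predicted genes and pseudogenes left out, also took in genes of low level outside the lists. Gxylt2, a xylosyltransferase that acts on Notch, had 37.3 CPM in KO cells and 136 CPM in Apoe cells. In the 44 cells with 5 or more fibroblast markers Gxylt2 was at 396 CPM, against 19.2 CPM in the remaining KO cells. Pcsk5, a proprotein convertase, had 9.60 CPM in KO cells and 32.7 CPM in Apoe cells. Cables1, Dock10, Dapk2 and Smim5 stood between 7.51 and 12.1 CPM in KO cells and between 28.2 and 41.1 CPM in Apoe cells.

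Of the 334 genes listed in Apoe cells alone, Stmn1 and Trim30a are described across the diets. Stmn1, a microtubule-destabilising phosphoprotein, had 44.4 CPM and a UMI in 30.6% of Apoe cells and was listed at 0 in KO cells. It was listed in Apoe cells on ND and after 2 and 4 months of HFD as well, at 44.7, 75.1 and 16.4 CPM, and at 0 in KO cells on each of these diets. Trim30a, an interferon-inducible regulator of innate immunity outside the interferon list, had 63.7 CPM and a UMI in 44.0% of Apoe 1M cells, and was listed in no other library of either genotype. Its difference at 1 month thus rests on the Apoe 1M library.

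Setting the other diets beside 1 month showed which of these differences recurred. The diets share no libraries. Of the 84 genes lower in KO cells at 1 month, 80 were listed in both libraries on ND, of which 57 were lower by at least 1 there, where 1.56% of all genes were; the same held for 50 of 74 after 2 months (2.5% of all genes) and 34 of 56 after 4 months (18.2%). Of the 81 higher genes, 35 of 75 were higher on ND (0.864% of all genes) and 36 of 65 after 2 months (1.31%). After 4 months 16 of 64 were higher (7.0% of all genes) and 20 were lower by at least 1. The KO 4M library held Acta2 at 802 CPM and the Apoe 4M library at 11932 CPM, while the other KO libraries held it at 21483.9 to 24611.9 CPM.

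Eln was lower in KO cells on all 4 diets. From ND to 4 months it had 714, 574, 368 and 55.0 CPM in KO cells and 3436, 1899, 2362 and 1717 CPM in Apoe cells. Mfap4 had 62.1, 327 and 128 CPM in KO cells on ND, 1 month and 2 months, against 2168, 1892 and 2495 CPM in Apoe cells. Marker cells were counted in the 1 month libraries alone, so whether such cells bear on these differences between diets was not tested. Ifitm3 had 924, 773, 1289 and 236 CPM in KO cells and 284, 323, 457 and 562 CPM in Apoe cells. Its ratio was above 1 on ND and after 1 and 2 months, and -1.25 after 4 months.

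**Figure D5:**
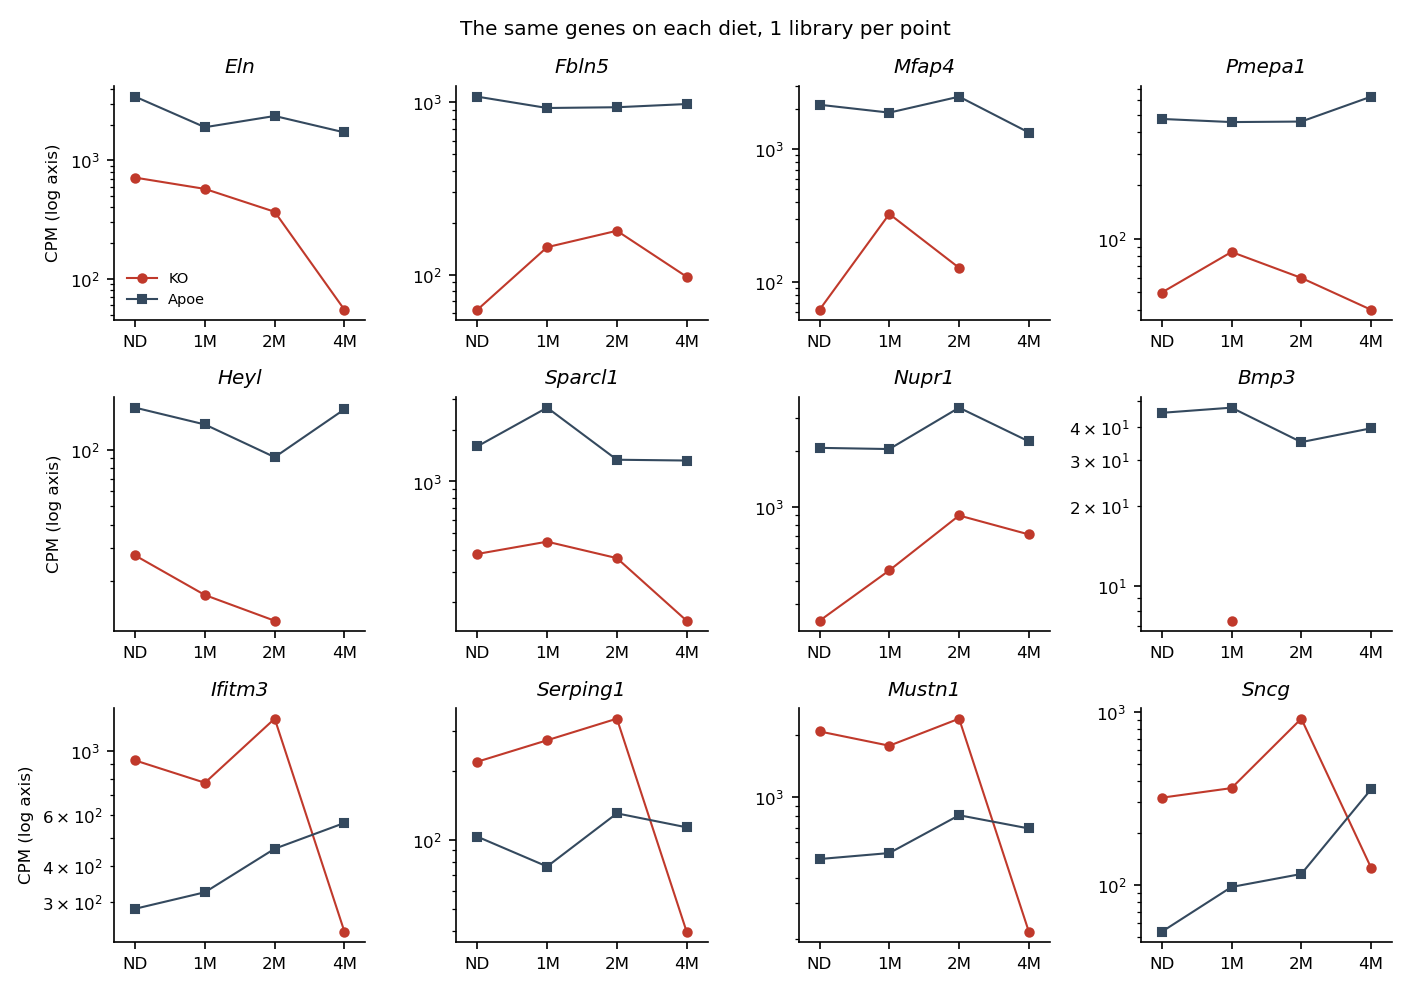
CPM (log axis) of 12 genes in KO (red circles) and Apoe (dark squares) libraries on ND and after 1, 2 and 4 months of HFD, 1 library per point; a missing point is a gene listed at 0 or absent from that table. The first 8 genes lie lower in KO cells wherever both points are drawn, and Ifitm3, Serping1, Mustn1 and Sncg lie higher on ND, 1M and 2M and lower on 4M.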

How the data were processed

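Single-cell RNA libraries were compared, 1 per genotype and diet, with groups taken from the sample labels; p-values cannot be given. The authors deposited log2 values, cells in rows and genes in columns, without the raw counts. UMI-tools, STAR and featureCounts (Subread 1.6.0) and the build GRCm38 are named in the submitters' processing notes. The labels of the deposited tables name TMM scaling and a relaxed filter, and no source used here gives the details of either. UMIs were recovered as (2 to the power of the value, minus 1) divided by the cell's smallest such value above 0. All 8299224 entries above 0 in the 1 month table came out whole within 0.01, so that sums of UMIs, scaled to CPM, replaced the log2 values. Gene IDs were named from GENCODE vM21 (10036 matched, 4 not). The genes named are the 15 highest and 15 lowest ratios. Also named are the 10 of highest CPM listed in 1 library alone, of which part is printed. Members of the gene lists past the size are named with up to 4 others. Predicted genes and pseudogenes, 20 of the 165 past the size, some of them protein-coding, were set aside by name or annotated type. Among them the pseudogene Gm13340 had the highest ratio of all 9348 genes, 3.64, with 87.6 CPM in KO cells and 7.02 CPM in Apoe cells. Values of 1 member of the TGF-beta response list are not reported here. The comparison, its lists and its markers were chosen with earlier results of these data known. Strand was not stated. Cells were not filtered further, doublets were not called, and 0 columns belonged to no sample. Alternatives were other scalings, pseudocounts, filters and sets of cells; leaving out marker cells of fibroblasts was chosen after seeing the data. The method was tested on simulated data. Python 3.11.15, numpy 2.4.6, scipy 1.17.1, pandas 2.3.3 and matplotlib 3.10.9 were used.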

Additional observations from a re-analysis of the deposited data

Results flagged for a closer look

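The 30 genes named for the highest and lowest ratios leave out predicted genes and pseudogenes. Of these 30, 5 were higher in KO cells at 1 month and lower on another diet, each by at least 1 in log2. Each value rests on 1 library per genotype, and the difference between diets was not tested. Cxcl1, at 2.67 after 1 month, had a log2 ratio of -1.23 after 2 months, with 126 CPM in KO cells and 297 CPM in Apoe cells. After 4 months Vwc2 stood at -2.58, Mustn1 at -1.69, Serping1 at -1.52 and Sncg at -1.50, against 1.97, 1.75, 1.83 and 1.90 after 1 month. The KO 4M library, with Acta2 at 802 CPM, is the one in which these 4 genes were lower. No group held enough libraries to look for outlying samples.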

How the results depend on the processing

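Scaling by TMM factors or median ratios gave 78 genes higher and 89 lower, against 81 and 84 as reported, and no scaling moved the median of all genes by over 0.1. Averaging cells equally gave 78 and 84, and the authors' scaled values 80 and 81. Counts moved by more than 1.5 times with a pseudocount of 10 (32 higher, 45 lower), with genes in at least 20% of cells of a library (43 higher) and with genes of at least 100 CPM (21 higher, 34 lower), where fewer genes were counted or low ones shrunk by construction. Without cells of 5 or more fibroblast markers 71 were higher and 113 lower, and without cells of 3 or more 71 and 123. Dcn, a marker itself, reversed, to -0.27 without cells of 5 or more fibroblast markers, -0.84 without those of 3 or more, and -0.85 without these and the other marker cells. In the small lists, the higher elastic fibre count was 0 with equal cells, a pseudocount of 10, both filters, without the cells with most and fewest UMIs and without any set of fibroblast marker cells. The higher complement count was 1 with a pseudocount of 10, at 100 CPM and without any of these cells; the higher chemokine count was 1 at 20% of cells and without fibroblast marker cells, and 0 without all marker cells, where 1 was lower, as it was without fibroblast marker cells. The matricellular counts were 2 lower with a pseudocount of 10, 1 higher at 20% of cells, 0 higher and 1 lower at 100 CPM, and 1 higher and 8 lower, or 7 lower without all marker cells; the higher TGF-beta response count was 0 at 100 CPM. Thinning to 5000 UMIs took the share of cells with a UMI to 45.5% in KO and 98.5% in Apoe cells for Eln, 22.3% and 96.6% for Fbln5, 15.5% and 6.07% for Dcn, and 92.8% and 73.2% for Ifitm3. Without fibroblast marker cells Fbln5 had a UMI in 30% of KO cells, and Dcn in 20.7% without cells of 5 or more markers, 17.2% without cells of 3 or more, and 17.1% without all marker cells. No paired analysis was possible because each genotype and diet has 1 library.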

Other observations

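Gene groups not described above had few members past the size. Of 17 proteases and inhibitors, 2 were higher in KO cells by at least 1, against 0.866% of all genes. Mmp2, a gelatinase, had 35.9 CPM in KO cells and 14.0 CPM in Apoe cells. Ctsk, a collagen-degrading cathepsin, had 16.8 CPM in KO cells and 6.66 CPM in Apoe cells. In the remaining cells Mmp2 had 13.5 CPM in KO cells and 13.8 CPM in Apoe cells. Among 18 genes of caveolae and annexins 16 lay above 0, with a median of 0.31 and none past the size. Cav1, the main protein of caveolae, had 1119 CPM in KO cells and 682 CPM in Apoe cells, and Anxa1, an annexin that curbs inflammation, 439 CPM in KO cells and 257 CPM in Apoe cells. Of 20 genes of oxidative phosphorylation 18 lay above 0, with a median of 0.14.

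Of 15 heat shock genes 13 lay below 0, with a median of -0.21, Dnajb1 among them with 264 CPM in KO cells and 377 CPM in Apoe cells. The 12 genes of cholesterol synthesis had a median of -0.07 and none past the size. Among 19 ion channels and vasoactive receptors, Rgs4, a brake on G protein signalling, was lower, with 138 CPM in KO cells and 306 CPM in Apoe cells, and Kcnk3, a leak potassium channel, higher, with 16.7 CPM in KO cells and 7.88 CPM in Apoe cells. Tmem176b, a membrane protein of immune cells, was listed in KO cells alone at 1 month, at 81.5 CPM with a UMI in 35.5% of cells, and after 2 months at 172 CPM in KO cells and 44.4 CPM in Apoe cells.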
